A study of Homo sapiens with 6 samples.

Results

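DNA replication and mitosis genes were examined in RPMI8226 cells, an established line derived from human multiple myeloma, a cancer of plasma cells. The set held 46 genes of the 63677 in the deposited table, chosen by symbol for their known role in the cell cycle and found by Ensembl identifier on the primary chromosomes. These genes were chosen with earlier results of these data known. Of the 46, 22 act at the G1/S transition or in DNA replication and 24 act in G2 phase or mitosis (G2/M). Cells of the wild-type line, grown in medium with serum, received 100 nM GST-PTR1 or 100 nM GST for 6 hr, with 3 RNA-Seq libraries of each. GST-PTR1 is the PTR1 domain of HAPLN1, a protein that links hyaluronan and proteoglycans in the matrix, fused to glutathione-S-transferase (GST), and GST is the fusion partner alone. Both proteins were made in Escherichia coli, so every library came from cells given a bacterially made protein. The authors report measuring bacterial endotoxin (LPS). They state that it lay orders of magnitude under the level their NF-κB binding assay can detect in these cells. The cells were a single line exposed to a domain of the matrix protein, and the labels state no synchronisation.

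A dividing cell copies its DNA once and then separates the copies. Cyclin D with CDK4 or CDK6, and later cyclin E with CDK2, inactivate the retinoblastoma protein and release E2F transcription factors, which switch on the genes for helicase loading, DNA polymerase and nucleotide supply. Genes for mitosis are switched on later by the MuvB complex with MYBL2 and FOXM1, mostly through a short promoter element called the cell cycle genes homology region (CHR), and cyclin B with CDK1 then drives mitosis until the anaphase-promoting complex destroys it. Messenger RNA of both groups is high in cycling cells and low in resting ones, so in a bulk culture fewer cells in a phase and less RNA per cell cannot be told apart.

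The promoters show the letters that separate the groups. RefSeq promoters of the human genome build GRCh38.p14, 250 bases before to 50 bases after each start site, could be matched to 36 of the 46 members and gave 48 windows. Of the 18 G1/S and replication members with a window, 12 (66.7%) held an E2F motif (TTTCCCGC, TTTCGCGC, TTTGCCGC or TTTGGCGC on either strand), as did 2 of the 18 G2/M members (11.1%) and 3.99% of 27305 genes. The CHR motif (TTTGAA or TTCGAA, either strand) was held by 2 of the 18 G1/S members (11.1%), 12 of the 18 G2/M members (66.7%) and 19.5% of all genes. A gene with several matches or windows was counted once, and matches of the motifs were allowed to overlap. The 150 bases before the start site are shown, 5′ to 3′ on the strand of the gene, for members the results turn on, with the motif in capitals (E2F in E2F2, E2F1 and CDC25A, CHR in BUB1B and PLK1). CDK6 had neither motif in this window, and PLK1 stands for the G2/M members that were not called different.
E2F2 (chr1:23531234-23531383, minus strand): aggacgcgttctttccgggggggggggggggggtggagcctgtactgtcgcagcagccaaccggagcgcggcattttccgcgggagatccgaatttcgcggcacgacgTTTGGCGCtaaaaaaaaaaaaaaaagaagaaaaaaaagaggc
E2F1 (chr20:33686386-33686535, minus strand): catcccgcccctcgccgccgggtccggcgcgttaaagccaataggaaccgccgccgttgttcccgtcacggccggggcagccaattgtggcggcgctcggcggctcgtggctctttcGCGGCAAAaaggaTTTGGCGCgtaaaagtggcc
CDC25A (chr3:48188418-48188567, minus strand): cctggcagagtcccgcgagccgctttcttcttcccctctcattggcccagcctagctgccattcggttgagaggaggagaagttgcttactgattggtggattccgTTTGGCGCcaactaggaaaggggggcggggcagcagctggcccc
CDK6 (chr7:92836574-92836723, minus strand): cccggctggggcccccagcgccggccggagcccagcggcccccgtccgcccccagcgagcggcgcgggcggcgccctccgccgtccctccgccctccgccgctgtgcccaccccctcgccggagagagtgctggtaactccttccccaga
BUB1B (chr15:40160919-40161068, plus strand): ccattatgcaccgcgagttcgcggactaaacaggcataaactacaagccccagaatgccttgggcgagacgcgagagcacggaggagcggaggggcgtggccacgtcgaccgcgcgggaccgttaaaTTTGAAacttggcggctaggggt
PLK1 (chr16:23678739-23678888, plus strand): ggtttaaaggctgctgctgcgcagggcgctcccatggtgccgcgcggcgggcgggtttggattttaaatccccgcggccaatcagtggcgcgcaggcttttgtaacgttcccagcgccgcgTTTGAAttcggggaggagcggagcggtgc
The E2F motif began 42 bases before the start site in E2F2, 44 bases before it in CDC25A and 33 and 20 bases before it in E2F1. The CHR motif began 23 bases before the start site in BUB1B and 29 bases before it in PLK1. A match is a description of these letters, and E2F1 and E2F2, which share the motif, are set side by side again below because their levels moved apart.

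The libraries held 15202503, 20077280 and 23453473 counts with GST and 22874133, 28837431 and 44688737 with GST-PTR1, and values are given in that order. Column names carry numbers other than the samples' replicate numbers, so each library is called by its total and none were paired. Levels are CPM (counts scaled to a common library size) on library totals scaled by edgeR's TMM factors. On unscaled totals 3 counts were worth 0.0671 to 0.197 CPM, a floor that covers counting error only. All 46 members passed the expression filter. Of 9 plasma cell and myeloma markers 8 were tested, with a summed level of 1952 to 2440 CPM with GST and 2009 to 2205 CPM with GST-PTR1. Of these 3 were called higher (PRDM1, IRF4 and SLAMF7) and 3 lower (SDC1, TNFRSF17 and XBP1), and CD27 was under 1 CPM. The 6 called of 8 tested stand beside 20.6% of all genes tested, and this difference in shares was not tested. The summed level does not show these changes of single markers, which went in both directions. Of 14 markers of other cell types, 12 were under 1 CPM in every library, with CD2, MPO, COL1A2 and ALB at 0, and the list's summed level, with KRT18 and EPCAM the genes above 1 CPM, was 149 to 169 CPM with GST and 117 to 125 CPM with GST-PTR1. KRT18 was called lower, and the part of these markers in the results was not tested.

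After 6 hr with GST-PTR1 most replication and mitosis genes differed little from GST. The members called different were regulators of the cycle, but other regulators, such as CCNE1, CDK2, CDK4 and E2F1, were not called. CCNE2 (cyclin E2) and CDK6 rose 3.02-fold and 2.00-fold, E2F2 fell to 0.443 of its level with GST, and CDC25A and BUB1B rose 1.34-fold and 1.40-fold. These 5 of the 46 members (10.9%) passed the quasi-likelihood test of edgeR at an adjusted p under 0.05 (Benjamini-Hochberg over 16926 genes), where 20.6% of all genes tested did. Of the members 4 were higher and 1 lower, against 9.15% and 11.4% of all genes. The difference between the members' share and that of all genes was not itself tested. Only CCNE2 and E2F2 were also past a 2-fold change, as 7.53% of all genes were, with CDK6 just under it. Of the 41 members not called, 34 were not called under any of 17 alternatives in the processing. CDC25C was called lower under 6 of these alternatives, and PCNA, the sliding clamp of DNA polymerase, was called higher under 5. The log2 fold change of PCNA, 0.58, was larger than those of CDC25A (0.42) and BUB1B (0.48).

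The 95% interval of the fold change lay within 1.5-fold of no change, in either direction, for 38 of the 46 members, as it did for 41.8% of all genes. The 8 members with a wider interval were CCNE2, CDK6, E2F2, CDC25A, BUB1B, PCNA, CDC45 and CDC25C. For the other members a change of 1.5-fold lay outside the interval. For 14 members the 3 GST-PTR1 libraries did not overlap the 3 GST libraries, against 40.4% of all genes. They lay above for 10 members (19.2% of all genes) and below for 4 (21.2%). Log2 fold changes were positive for 23 members and negative for 23.

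**Figure D1:**
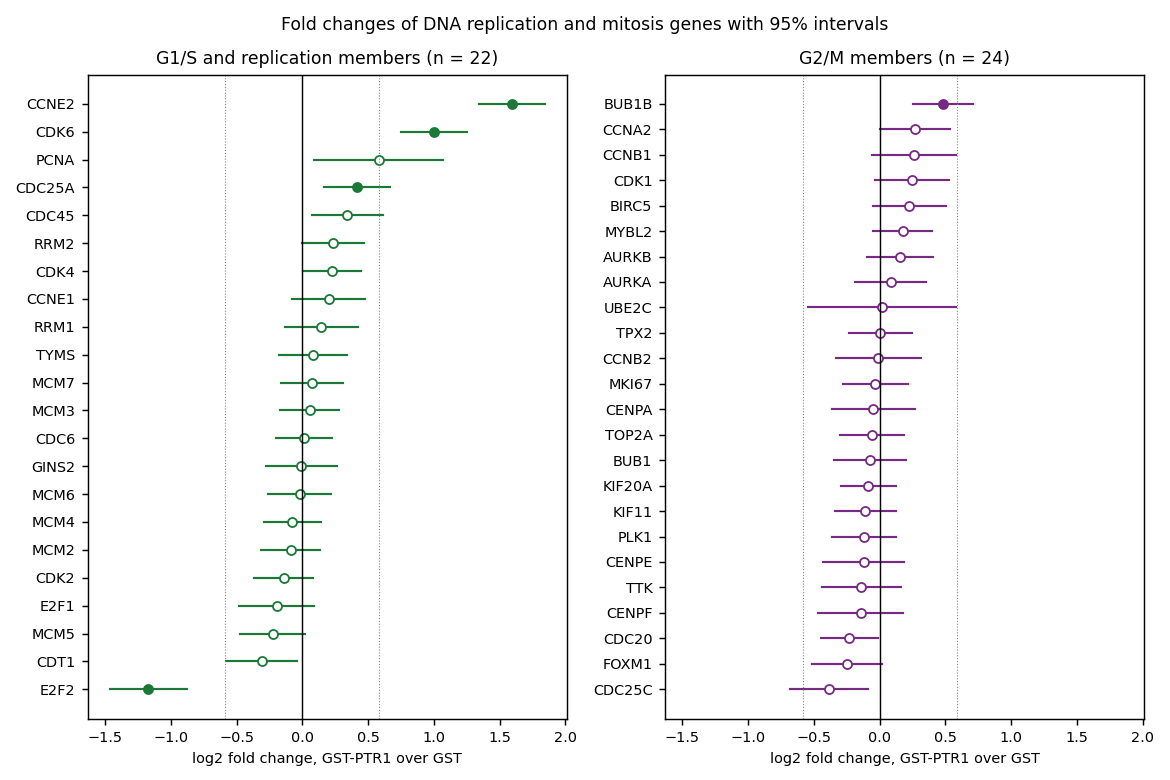
Log2 fold change (GST-PTR1 over GST, edgeR) of each member on the x axis, with its 95% interval as a line and filled points for an adjusted p under 0.05, for the 22 G1/S and replication members (left) and the 24 G2/M members (right). Dotted lines mark 1.5-fold. CCNE2 and CDK6 lie to the right and E2F2 to the left of the rest, and BUB1B is the G2/M member called.

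The G1/S and replication members were compared with the G2/M members. Of the first group 4 of 22 were called (18.2%) and of the second 1 of 24 (4.17%), beside 20.6% of all genes tested, and the difference between these shares was not tested. The median log2 fold change was 0.07 for the G1/S and replication members, -0.04 for the G2/M members and 0.01 for all genes tested. The medians of the groups differed by -0.11 (G2/M minus G1/S). The SDs of the group medians between libraries of the same treatment combine to 0.124 when the groups are taken as independent. Both groups were read from the same libraries, so 0.124 is not the SD of this difference. Without the GST library of 20077280 counts the difference was -0.0025 and the G2/M median was 0.06. Leaving out that library removed nearly all of the difference, which was not tested.

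Scaling set the direction of small changes. When libraries were scaled by their totals alone, all genes shifted by a median log2 fold change of -0.20, the G1/S median became -0.13 and the G2/M median -0.23. Of the members 2 were then called higher and 6 lower, 8 of 46 in all, against 5.48%, 22.4% and 27.9% of all genes. CCNE2, CDK6 and E2F2 kept their calls, CDC25A and BUB1B lost theirs, and CDC20, CDC25C, CDT1, FOXM1 and MCM5 were called lower.

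Of the 8 transcription factors, cyclins, kinases and phosphatase of the G1/S transition 4 were called, beside 20.6% of all genes tested, and this difference in shares was not tested. Cyclin E2 binds and activates CDK2 at the start of S phase. CCNE2 (ENSG00000175305, chromosome 8 of GRCh37 from 95891998 to 95908906, minus strand) was at 17.6, 17.1 and 15.8 CPM with GST and at 46.6, 52.1 and 54.0 CPM with GST-PTR1. The treatments did not overlap, and the spread within each was small beside the gap. This was a log2 fold change of 1.596 with a standard error of 0.11 (adjusted p = 2.74e-06, edgeR). CCNE1, which codes for the related cyclin E1, was at 11.9, 11.3 and 12.3 CPM and at 15.2, 12.7 and 12.9 CPM, for a log2 fold change of 0.20 (adjusted p = 0.288, edgeR). Its libraries did not overlap, but the difference did not pass the test.

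CDK6, a partner of D cyclins, was among the most clearly changed members. CDK6 (ENSG00000105810, chromosome 7 from 92234235 to 92465908, minus strand) was at 201, 203 and 168 CPM with GST and at 384, 405 and 354 CPM with GST-PTR1. The treatments did not overlap, and the log2 fold change was 1.00 with a standard error of 0.11 (adjusted p = 0.000126, edgeR). CDK4, its close relative with the same partners, was at 134, 144 and 151 CPM and at 155, 170 and 175 CPM, for a log2 fold change of 0.22 (adjusted p = 0.140, edgeR). CDK2, the partner of cyclin E, was at 48.0, 45.9 and 47.6 CPM and at 46.2, 42.1 and 39.8 CPM, with overlapping treatments and a log2 fold change of -0.14 (adjusted p = 0.343, edgeR).

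E2F2 was the only member called lower. E2F2 is an activating E2F transcription factor, and its gene (ENSG00000007968, chromosome 1 from 23832922 to 23857712, minus strand) was at 107, 83.2 and 95 CPM with GST and at 45.6, 45.3 and 35.5 CPM with GST-PTR1. The highest GST-PTR1 library was well below the lowest GST library, and the log2 fold change was -1.17 with a standard error of 0.13 (adjusted p = 0.000115, edgeR). E2F1, an activating E2F of the same family, was at 77.5, 56.0 and 68.1 CPM and at 62.9, 60.1 and 53.0 CPM. Its treatments overlapped, and its log2 fold change was -0.20 (adjusted p = 0.304, edgeR).

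CDC25A is the phosphatase that removes inhibitory phosphates from CDK2 and CDK1. CDC25A (ENSG00000164045, chromosome 3 from 48198636 to 48229892, minus strand) was at 73.0, 64.6 and 70.4 CPM with GST and at 105, 91.3 and 82.1 CPM with GST-PTR1. Treatments did not overlap, and the log2 fold change was 0.42 with a standard error of 0.11 (adjusted p = 0.0247, edgeR). The call was lost without any of 4 libraries. The adjusted p of edgeR's test was 0.0754 without the GST library of 20077280 counts, 0.0756 without that of 23453473, 0.0869 without the GST-PTR1 library of 22874133 counts and 0.0699 without that of 28837431.

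**Figure D2:**
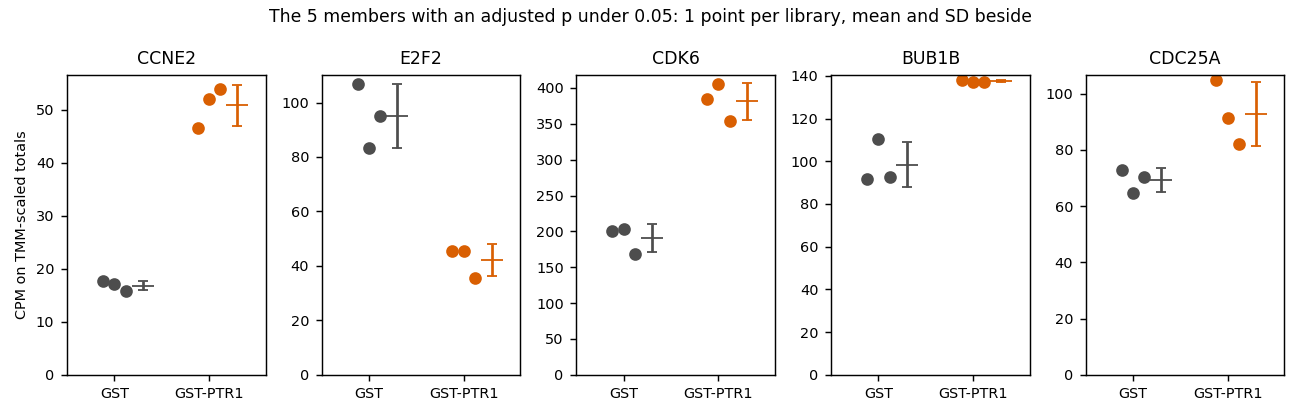
Level of the 5 members with an adjusted p under 0.05 (y axis, CPM on TMM-scaled totals, from 0), with 1 point per library and the mean and SD (n = 3) beside the points. The treatments do not overlap for any of the 5, and the BUB1B libraries of GST-PTR1 lie between 137 and 138 CPM.

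No gene of the replicative helicase passed the test. MCM2 to MCM7 form the ring that is loaded at origins and unwinds DNA. The test of edgeR called 0 of these 6 members, beside 20.6% of all genes tested. An unadjusted p under 0.05 was held by 0 of them, and DESeq2 and limma's voom called 0 each. The 20.6% also stands beside the counts of the small groups of members below, and no difference in shares was tested. The log2 fold changes of the 6 ranged from -0.23 (MCM5) to 0.08 (MCM7). All 6 intervals lay within 1.5-fold of no change, as did those of 41.8% of all genes. MCM7, the most abundant of them per length, was at 759, 749 and 825 CPM with GST and at 849, 786 and 826 CPM with GST-PTR1. MCM5 was at 299, 263 and 287 CPM and at 271, 228 and 227 CPM, with overlapping treatments (adjusted p = 0.173, edgeR). It was called lower with library totals.

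Genes that load and fire origins had log2 fold changes from -0.31 to 0.34, and edgeR called 0 of 4 (2 with an unadjusted p under 0.05, 0 called by DESeq2 and by voom). CDC45, which joins the helicase with the GINS complex when an origin fires, was at 27.7, 34.5 and 33.8 CPM with GST and at 41.0, 37.2 and 43.7 CPM with GST-PTR1, a log2 fold change of 0.34 (adjusted p = 0.0701, edgeR). CDT1, a helicase loader, was at 81.9, 69.8 and 81.9 CPM and at 72.2, 60.4 and 56.0 CPM, for a log2 fold change of -0.31 (adjusted p = 0.0931, edgeR). CDC45 did not overlap between treatments and CDT1 did. CDC45 was called higher under 3 of the 17 alternatives, with a lowest adjusted p of 0.0409 in edgeR's test. CDT1 was called lower under 4 of the 17 alternatives. Among them were library totals (adjusted p = 0.0193, edgeR) and leaving out the GST-PTR1 library of 22874133 counts (adjusted p = 0.0420, edgeR). CDC6, which loads the helicase together with CDT1, and GINS2, a GINS subunit, had log2 fold changes of 0.01 and -0.01.

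The polymerase clamp and the enzymes of nucleotide supply had positive log2 fold changes, and none was called by edgeR (0 of 4, 1 with an unadjusted p under 0.05, 1 called by DESeq2 and 0 by voom). PCNA, the sliding clamp of DNA polymerase, had the highest level per length of all members. It was at 318, 553 and 484 CPM with GST and at 541, 592 and 893 CPM with GST-PTR1. The lowest GST and the highest GST-PTR1 library stood apart from the others, the treatments overlapped, and the log2 fold change was 0.58 with a 95% interval from 0.09 to 1.07 (adjusted p = 0.0886, edgeR). PCNA was called higher under 5 of the 17 alternatives. Among them were DESeq2's test (adjusted p = 0.0384) and edgeR's without the GST-PTR1 library of 22874133 counts (adjusted p = 0.0422). RRM1 and RRM2, the subunits of ribonucleotide reductase, had log2 fold changes of 0.14 and 0.23, and TYMS, thymidylate synthase, of 0.08.

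Cyclins and regulators of CDK1 came next in the cycle, and edgeR called 0 of 5 (2 with an unadjusted p under 0.05, 0 called by DESeq2 and by voom). CCNA2, the cyclin of S and G2 phase, was at 81.7, 107 and 96.9 CPM with GST and at 108, 110 and 126 CPM with GST-PTR1, a log2 fold change of 0.27 (adjusted p = 0.139, edgeR). CDK1, the mitotic kinase, was at 76.5, 95.6 and 88.6 CPM and at 102, 89.7 and 117 CPM, a log2 fold change of 0.25 with overlapping treatments. Cyclins B1 and B2, which activate CDK1, had log2 fold changes of 0.26 (CCNB1) and -0.01 (CCNB2).

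CDC25C, the phosphatase that activates CDK1 at mitotic entry, had the lowest log2 fold change of the G2/M members. It was at 14.0, 17.7 and 17.6 CPM with GST and at 12.4, 11.8 and 13.5 CPM with GST-PTR1, without overlap and with a log2 fold change of -0.39 (adjusted p = 0.0646, edgeR). CDC25C was called lower under 6 of the 17 alternatives. Among them were library totals (adjusted p = 0.00754, edgeR) and leaving out the GST library of 15202503 counts (adjusted p = 0.0228, edgeR).

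BUB1B was the only G2/M member called. It codes for BUBR1, a kinase-like protein of the spindle checkpoint, which holds cells in mitosis until all chromosomes are attached. BUB1B (ENSG00000156970, chromosome 15 from 40453224 to 40513337, plus strand) was at 91.8, 111 and 92.8 CPM with GST and at 138, 137 and 137 CPM with GST-PTR1. The treatments did not overlap, and the log2 fold change was 0.48 with a standard error of 0.10 (adjusted p = 0.00818, edgeR). On the same strand, 10.2% of its exon bases also lie in exons of BUB1B-PAK6 or PAK6, and reads there were left out of the counts. The other members of the checkpoint, the kinases BUB1 and TTK, had log2 fold changes of -0.07 and -0.14.

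The remaining G2/M members were not called. None of the mitotic kinases AURKA, AURKB and PLK1 or of BIRC5, a subunit of the chromosomal passenger complex, was called by edgeR (0 of 4, with 0 at an unadjusted p under 0.05 and 0 by DESeq2 or voom). AURKA, AURKB and BIRC5 had log2 fold changes of 0.08, 0.15 and 0.23. PLK1 was at 226, 230 and 248 CPM with GST and at 240, 216 and 193 CPM with GST-PTR1, a log2 fold change of -0.12. MKI67, which codes for the proliferation marker Ki-67, was at 164, 161 and 145 CPM and at 166, 159 and 134 CPM, a log2 fold change of -0.03 with a 95% interval from -0.28 to 0.21. TOP2A, the topoisomerase that untangles sister chromosomes, had a log2 fold change of -0.06.

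The centromere proteins CENPA (6.96% of whose exon bases are shared with SLC35F6), CENPE and CENPF had log2 fold changes of -0.05, -0.12 and -0.14, and the spindle proteins KIF11, KIF20A and TPX2 of -0.11, -0.09 and 0.00. Of the transcription factors of these genes, FOXM1 was at 105, 103 and 112 CPM with GST and at 104, 90.7 and 75.6 CPM with GST-PTR1, a log2 fold change of -0.25 (adjusted p = 0.170, edgeR). MYBL2 had a log2 fold change of 0.17. CDC20, the activator of the anaphase-promoting complex in mitosis, was at 149, 160 and 172 CPM and at 142, 134 and 134 CPM, without overlap and with a log2 fold change of -0.23 (adjusted p = 0.122, edgeR). UBE2C, the ubiquitin-conjugating enzyme of that complex, held 400 counts over all libraries where 5 pseudogene copies held 731, so its value is uncertain. CDC20 held 22260 counts and its pseudogene copy CDC20P1 4736, so some of its reads may also have been counted elsewhere or left out.

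Spread between libraries of the same treatment was itself patterned. The GST library of 15202503 counts was the lowest of the GST libraries for 22 of 24 G2/M members (91.7%), where it was the lowest for 37.4% of all genes, and for 11 of 22 G1/S and replication members. Its G2/M members had a median deviation of -0.17 log2 units from their mean over the 6 libraries, and in the GST library of 20077280 counts the median was 0.11. In the GST-PTR1 libraries the same median was 0.05, -0.05 and -0.02. For the G2/M members the GST libraries thus differed from each other by more than the medians of the treatments did, and the part of this spread in the results above was not tested beyond leaving each library out.

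**Figure D3:**
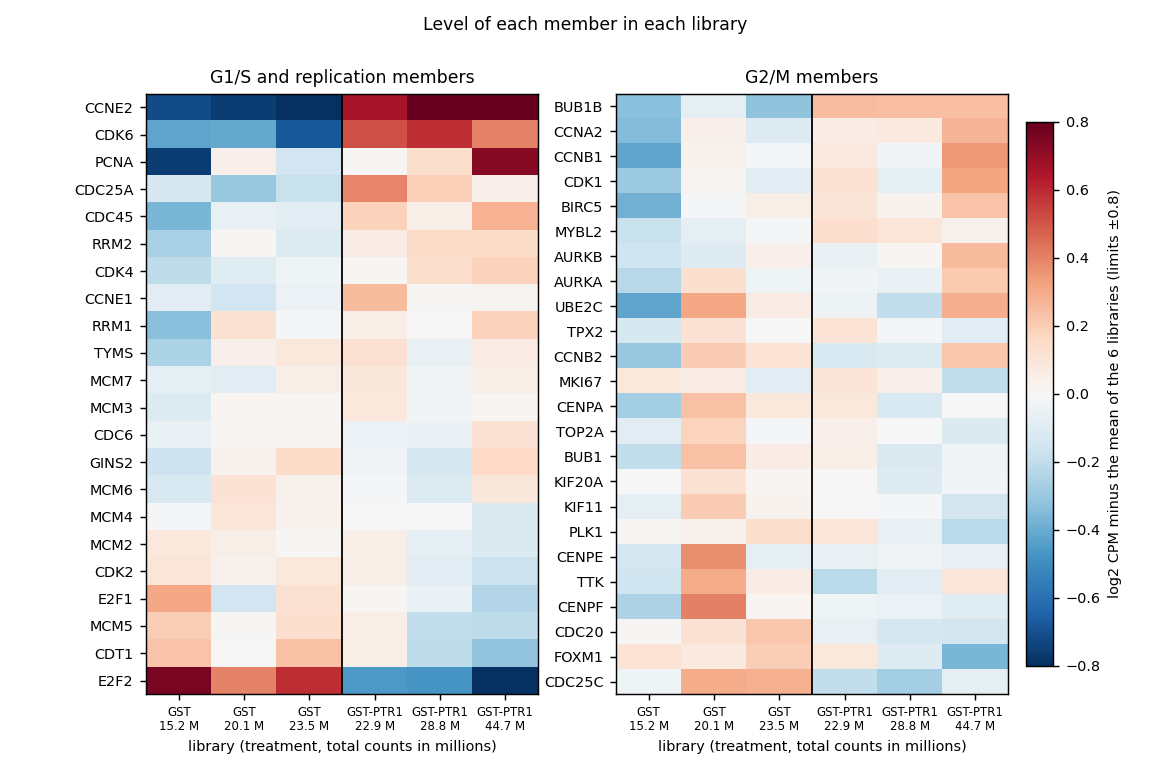
Level of each member (rows) in each library (columns, treatment and total counts), as log2 CPM minus the mean of the 6 libraries, with red above and blue below. CCNE2, CDK6 and E2F2 split by treatment, and the GST library of 15202503 counts is the lowest of the GST libraries for 22 of the 24 G2/M members.

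Levels between genes were compared per length, as RPKM (counts per exon length and library total) with GST. The median was 36.6 RPKM for the G1/S and replication members and 24.0 RPKM for the G2/M members. PCNA was the highest at 327 ± 81.7 RPKM (SD, n = 3), followed by MCM7 at 190 ± 10.2 and MYBL2 at 128 ± 5.88. The order ran on through MCM3 at 115 ± 3.11, TYMS at 103 ± 10.9 and CCNB1 at 94.4 ± 13.8 RPKM, and TYMS and CCNB1 differed by less than their SDs. At the low end stood CDC25C at 5.77 ± 0.631, CCNE1 at 4.93 ± 0.254, CENPE at 4.28 ± 0.801, CCNE2 at 4.10 ± 0.284 and UBE2C at 1.65 ± 0.455 RPKM, and the values of CENPE and CCNE2 differed by less than their SDs. Of the members that changed, CCNE2 was at rank 45 of 46, CDK6 at 34, CDC25A at 32, E2F2 at 31 and BUB1B at 29 by level, all in the lower part of the order.

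Ratios of related members within a library do not depend on how libraries are scaled. The pairs were chosen after their values were seen, so the ratios are a description. CCNE2 stood at 0.867, 0.882 and 0.754 of CCNE1 in RPKM with GST and at 1.79, 2.39 and 2.45 times CCNE1 with GST-PTR1. Which gene of a pair is higher depends on the exon lengths (4399 bases for CCNE2, 2568 for CCNE1). The change of a ratio between treatments does not. In CPM, CCNE2 was above CCNE1 in every GST library too (17.6, 17.1 and 15.8 against 11.9, 11.3 and 12.3). CDK6 stood at 0.387, 0.364 and 0.288 of CDK4 and at 0.639, 0.615 and 0.522. Per exon length CDK4 remained the higher of the pair, while in CPM CDK6 was the higher in every library. E2F2 stood at 0.632, 0.682 and 0.639 of E2F1 and at 0.332, 0.346 and 0.307.

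The ratio of the phosphatases rose, with CDC25A at 3.86, 2.70 and 2.97 times CDC25C with GST and at 6.23, 5.72 and 4.49 times with GST-PTR1. BUB1B over BUB1 went from 0.568, 0.507 and 0.481 to 0.720, 0.803 and 0.756, and CCNB1 over CCNB2 from 1.12, 1.08 and 1.12 to 1.39, 1.29 and 1.32. Ratios did not overlap between treatments for these 6 of 8 pairs. The share over other pairs of genes was not counted, and for single genes it was 40.4%. Each of the 6 had the smallest p that 3 libraries against 3 can give (two-sided exact permutation test, p = 0.1, adjusted to 0.133 over the 8 pairs). These p-values decide nothing, because the pairs were chosen after their values were seen. All of the 6 but CCNB1 over CCNB2 also hold a member called above. AURKA over AURKB (p = 0.9, exact permutation test) and RRM2 over RRM1 (p = 0.4, exact permutation test) overlapped.

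**Figure D4:**
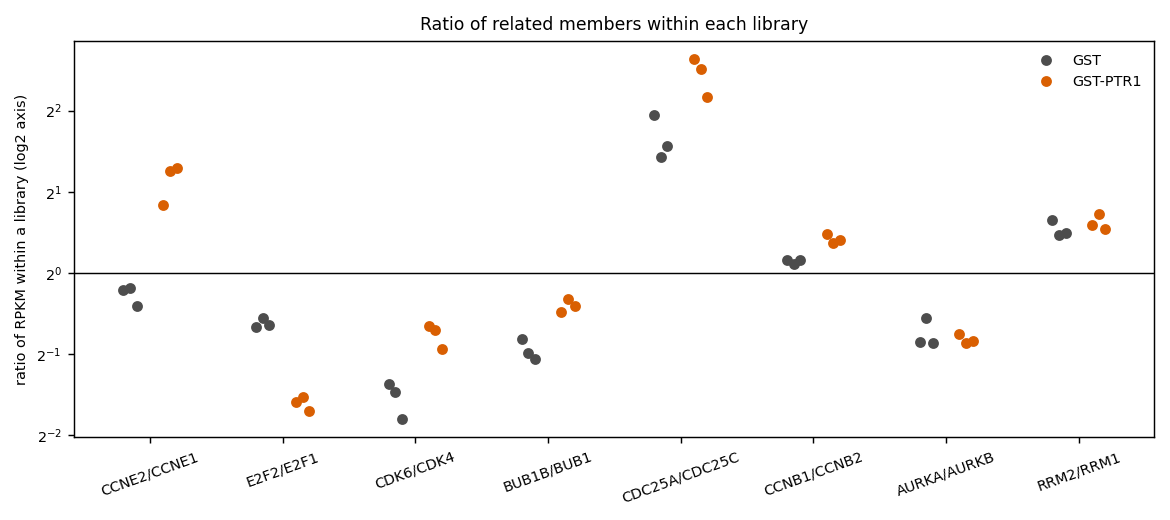
Ratio of the RPKM of related members within each library (y axis, log2 scale), with 1 point per library for GST (grey) and GST-PTR1 (orange). CCNE2/CCNE1 crosses 1 and E2F2/E2F1 moves down, and 6 of the 8 pairs do not overlap between treatments. The side of 1 on which a pair lies depends on the exon lengths. The pairs were chosen after their values were seen.

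The other genes of the pathway were read from further lists. Of 55 other replication genes tested, edgeR called 1 higher and 1 lower (3.64%, against 20.6% of all genes). EXO1, an exonuclease of DNA repair and recombination, rose from 67.8, 75.6 and 68.9 CPM to 96.5, 95.2 and 97.4 CPM, for a log2 fold change of 0.45 (adjusted p = 0.00724, edgeR). GINS1, a subunit of the GINS complex, fell from 66.3, 70.9 and 67.3 CPM to 53.0, 54.8 and 47.9 CPM, for a log2 fold change of -0.39 (adjusted p = 0.0180, edgeR). SLBP, which binds histone messenger RNA, and FEN1, the flap nuclease of Okazaki fragments, had log2 fold changes of 0.33 and 0.28 and were not called. EXO1 lost its call with library totals (adjusted p = 0.0947, edgeR). GINS1 kept its call without the GST library of 15202503 or the GST-PTR1 library of 22874133 counts and lost it without any of the other 4 (adjusted p up to 0.0748, edgeR).

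Of 57 other mitosis genes tested, 1 was higher and 2 were lower (5.26%). PSRC1, a spindle-associated protein, fell from 8.82, 8.57 and 9.26 CPM to 4.49, 3.88 and 4.06 CPM, for a log2 fold change of -1.10 (adjusted p = 0.000378, edgeR). SPC24, a kinetochore subunit, fell with a log2 fold change of -0.42, and CKS2, a CDK-binding protein, rose with 0.54 (adjusted p = 0.0273 and 0.0451, edgeR). PSRC1 was called under all 17 alternatives. SPC24 kept its call without the GST library of 15202503 or 20077280 counts and lost it without any of the other 4, and CKS2 kept it only without the GST-PTR1 library of 22874133 counts (adjusted p up to 0.119 and 0.127, edgeR). NCAPD2, a condensin subunit, had a log2 fold change of -0.31 and was not called. Of 16 genes of the anaphase-promoting complex and its regulators, edgeR called 0, beside 20.6% of all genes tested. Of the 16, 2 had an unadjusted p under 0.05, and DESeq2 and voom called 1 each. FBXO5, which codes for the inhibitor EMI1, was nearest the threshold over all 6 libraries, with a log2 fold change of 0.38 (adjusted p = 0.05005, edgeR). When the GST library of 20077280 counts was left out, 1 gene of this list was called higher.

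A further list held regulators of the cycle. Of 40 tested genes for CDK inhibitors, D cyclins, checkpoint kinases and the RB and DREAM complexes, 7 were higher and 3 lower (10 of 40 in all, close to the 20.6% of all genes). GADD45B, a stress-induced protein, rose from 23.3, 22.1 and 27.2 CPM to 91.8, 103 and 112 CPM, for a log2 fold change of 2.08 (adjusted p = 6.93e-07, edgeR). CCND2, the D cyclin that pairs with CDK4 and CDK6, rose from 736, 685 and 786 CPM to 1838, 1733 and 1467 CPM, for a log2 fold change of 1.19 (adjusted p = 7.59e-05, edgeR). BTG1, an antiproliferative protein, rose with a log2 fold change of 0.91, and CDKN1C, which codes for the CDK inhibitor p57, fell with -1.47 (adjusted p = 0.000406 and 0.000698, edgeR).

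The other genes of this list that passed were chosen for naming after their values were seen. CDKN1A, which codes for the CDK inhibitor p21, rose from 27.3, 17.6 and 22.7 CPM to 46.2, 42.0 and 46.4 CPM (log2 fold change 1.00, adjusted p = 0.000968, edgeR). CDKN1B (p27) rose from 70.5, 69.6 and 66.4 CPM to 102, 100.1 and 98.6 CPM (log2 fold change 0.54, adjusted p = 0.00193, edgeR). CDKN2B (p15) and the CDK1 inhibitory kinase WEE1 rose with log2 fold changes of 0.78 and 0.34, while CDKN2D (p19) and the pocket protein RBL2 fell with -0.57 and -0.40. CDKN2C (p18) had 0 counts in all 6 libraries and was not tested. Genes of cyclin E2, cyclin D2 and CDK6 rose in the same libraries as those of p21 and p27. GADD45B, CCND2, BTG1, CDKN1A, CDKN1B and CDKN1C were called under all 17 alternatives. When libraries were left out in turn, CDKN2B lost its call in 3 of 6 cases (without 20077280 or 23453473 counts of GST, or 28837431 of GST-PTR1), RBL2 in 4 (all but 23453473 of GST and 22874133 of GST-PTR1), WEE1 in 5 (all but 44688737 of GST-PTR1) and CDKN2D in all 6.

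**Figure D5:**
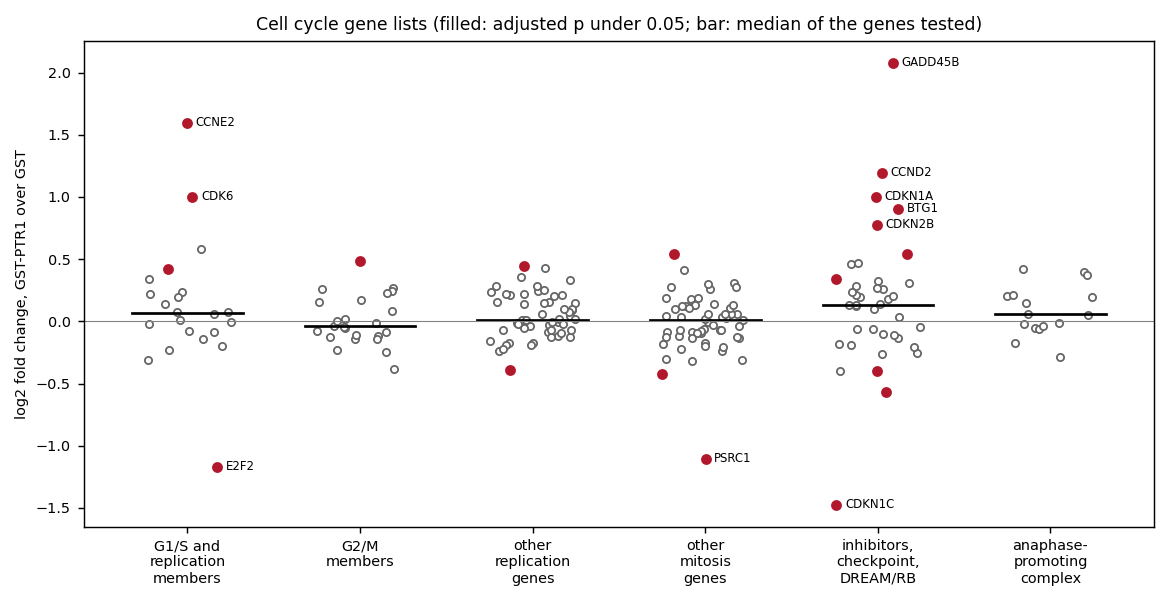
Log2 fold change (y axis, GST-PTR1 over GST) of each tested gene of 6 cell cycle lists, with filled points for an adjusted p under 0.05 in edgeR's test and a bar at the median of each list. The median of every list lies close to 0. Single genes lie far from it in several lists, such as CCNE2 and E2F2 among the members, PSRC1 at -1.10 among other mitosis genes, and CDKN1C at -1.47 and GADD45B at 2.08 among the inhibitors.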

How the data were processed

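RNA was taken from RPMI8226 cells after 6 hr with 100 nM GST or GST-PTR1 (3 libraries each) and sequenced as stranded, poly(A)-selected libraries. The authors deposited raw gene counts in whole numbers, made with featureCounts 1.5.0-p1 on the Ensembl release 75 annotation of GRCh37 with strand setting 2 and not normalized. Multi-mapped reads, and reads on exons of more than 1 gene of a strand, were not counted, so near-identical copies and overlapping genes are undercounted. The aligner's version is not given in the sources used here. The deposited table has 63677 genes. The 5904 off the primary chromosomes held 0 counts, and 238 of 240 listed symbols were matched by Ensembl identifier. Columns were assigned to a treatment by name, and no pair of libraries agreed within sampling noise (chi-square per gene 8.31 to 47.1).

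From the counts, the treatments were compared with edgeR 4.0.16 under R 4.3.3 (TMM factors, filterByExpr, glmQLFit and glmQLFTest, two-sided, Benjamini-Hochberg over 16926 genes). P-values of the fit set the difference between treatments against the spread between these libraries of a single cell line. RPKM used library totals and the deposited exon lengths. Intervals are at 95%. Ratios were tested with two-sided exact permutation tests. The fit was first tested on simulated data with known changes. Alternatives were DESeq2 size factors, library totals or upper-quartile factors, DESeq2 1.42.0 or limma 3.58.1 voom, filters of at least 1 count in any or 10 in every library, leaving out each library, moving CCNA2 and MYBL2 to the G1/S group, fold thresholds of 1.5 and 2, and RPKM on TMM-scaled totals. Fits of the 4 libraries sharing a column number, thinning to the smallest total and removing the exon length trend were chosen after seeing the data. Members and lists were chosen with earlier results of these data known. All members were eligible to be named, and of each other list the 4 genes with the smallest adjusted p. Promoters are from RefSeq (GRCh38.p14) and were searched for motifs with Python 3.11.15 and pandas 2.3.3. No coordinates were moved between builds. Figures were drawn with matplotlib 3.10.9.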

Additional observations from a re-analysis of the deposited data

How the results depend on the processing

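CCNE2, CDK6 and E2F2 were called in the same direction under all 17 alternatives, BUB1B under 16 (not with library totals, adjusted p = 0.0723 in edgeR's test) and CDC25A under 9. With library totals 2 members were higher and 6 lower (3 of the lower in each group, 0 G2/M members higher), with upper-quartile factors 4 were lower (2 in each group), and the medians were -0.13 (G1/S) and -0.23 (G2/M) with library totals and -0.024 (G1/S) with upper-quartile factors. A change of at least 1.5-fold left 2 members higher and of at least 2-fold 1. With at least 1 count in any library, 5 G1/S members were higher. No paired analysis of all libraries was possible because the columns cannot be matched to the replicate numbers. In the 4 libraries that share a column number, the difference between the numbers 4 and 5 was compared across genes. Its correlation between GST and GST-PTR1 was -0.0512. This contrast alone cannot show whether the numbers pair the samples. The fit with the replicate block called 2 members lower (1 of G2/M), and its G1/S median was 0.0014. Without the block 3 were lower (2 of G1/S, 1 of G2/M) and the median was 0.0027. With the exon length trend removed 2 members were lower (1 of G2/M). Leaving out each library in turn gave 3 to 4 members higher and 1 to 2 lower, 2 to 3 G1/S members higher and 1 to 2 lower, 1 G2/M member higher and 0 to 1 lower. The second lower member was CDC25C without the GST library of 15202503 counts and CDT1 without the GST-PTR1 library of 22874133 counts. The G1/S median then ranged from 0.0028 to 0.098, the G2/M median from -0.13 to 0.06 and their difference from -0.14 to -0.0025.

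Other replication genes called higher were 0 with library totals, 2 with DESeq2, 4 with at least 1 count and 3 with the length trend removed, and 8 were lower with library totals. Other mitosis genes called higher were 0 with library totals, upper-quartile factors and voom, 2 with DESeq2 and 3 with at least 1 count, and 10 and 5 were lower with library totals and upper-quartile factors. Of the inhibitor list 11 were higher with at least 1 count and with the length trend removed, and 9 and 5 lower with library totals and upper-quartile factors. Of the anaphase-promoting complex list 1 was higher with DESeq2 size factors, DESeq2, voom, at least 1 count and the length trend removed, and 2 were lower with library totals. Leaving out each library gave 1 higher and 0 to 1 lower for other replication, 0 to 1 and 1 to 3 for other mitosis, 5 to 9 and 1 to 3 for the inhibitors, and 0 to 1 and 0 for the complex. The cause of these shifts was not tested, other than that library totals shift all genes by -0.20 and upper-quartile factors by -0.089.

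Of the members, 19 not called changed sign in at least 1 alternative and none was called with the opposite sign. These were, as log2 fold changes, AURKA (-0.12), AURKB (-0.048), CDC6 (-0.18), MCM3 (-0.14), MCM7 (-0.12), MYBL2 (-0.020), RRM1 (-0.053), TPX2 (-0.19), TYMS (-0.12) and UBE2C (-0.18) with library totals, AURKA (-0.0075), CDC6 (-0.076), MCM3 (-0.034), MCM7 (-0.013), TPX2 (-0.085), TYMS (-0.013) and UBE2C (-0.073) with upper-quartile factors, GINS2 (0.00067) with DESeq2 size factors and GINS2 (0.00063) with DESeq2's test. With at least 1 count in any library they were CCNB2 (0.017), GINS2 (0.023) and MCM6 (0.0094), with the 4 libraries and the replicate block MCM3 (-0.012), TPX2 (-0.11), TYMS (-0.062) and UBE2C (-0.14), and without the block MCM3 (-0.012), TPX2 (-0.11), TYMS (-0.061) and UBE2C (-0.12). Thinning gave CENPA (0.025), TPX2 (-0.011) and UBE2C (-0.11), and removing the length trend GINS2 (0.00073), MKI67 (0.030) and UBE2C (-0.031). Leaving out 1 library turned AURKA (-0.0017 to 0.17), BUB1 (-0.18 to 0.034), CCNB2 (-0.15 to 0.092), CDC6 (-0.030 to 0.049), CENPA (-0.18 to 0.070), CENPE (-0.22 to 0.060), CENPF (-0.29 to 0.052), GINS2 (-0.088 to 0.070), MCM6 (-0.085 to 0.038), MKI67 (-0.092 to 0.067), TOP2A (-0.11 to 0.027), TPX2 (-0.057 to 0.067), TYMS (-0.022 to 0.14), UBE2C (-0.17 to 0.22). Depth limits UBE2C most, with 29 counts in the smallest library.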
